A study of Mus musculus with 8 samples.

Results

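A set of 8 genes of the B lymphocyte lineage were followed in the transcriptomes of tumor-associated macrophages (TAMs): Ighm, Igkc, Cd79a, Cd79b, Ms4a1, Ebf1, Pax5 and Jchain. They were chosen by gene symbol, for what they are known to encode, at a time when earlier results of these data were known. All 8 were found among the 53247 genes of the deposited table. The TAM gate was CD45+, CD11b+, MHCII+ and F4/80+, applied to collagenase-digested s.c. tumors of LLC, the Lewis lung carcinoma line, 14 days after implantation into C57/BL6 mice listed as 10 weeks old. There were 4 samples from WT mice and 4 from miR-21-/- mice, which lack the microRNA in every cell and not in macrophages alone, and all 8 samples came from mice bearing the same tumor. A title in the labels, that of the first miR-21-/- sample, gives a double number that may stand for pooled mice, and this sample was counted once. The labels call the samples biological replicates, and each p below takes these samples as the replicates.

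B lymphocytes are recognized by their antigen receptor, an immunoglobulin made of heavy and light chains on the cell surface. Ighm encodes the constant region of the IgM heavy chain and Igkc that of the kappa light chain. In B cells each is expressed with a variable segment chosen by rearrangement of DNA, so that each B cell clone uses its own segments. CD79A and CD79B, encoded by Cd79a and Cd79b, carry the signal of the receptor into the cell, and CD20, encoded by Ms4a1, lies in the B cell membrane. EBF1 and PAX5 are the transcription factors that establish and keep B cell identity, and the J chain, encoded by Jchain, links IgM and IgA units in plasma cells. These genes are known mainly from B cells and plasma cells, and the gate that the labels give for TAMs names no B cell marker.

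Values are CPM, the counts per 1000000 reads that the authors deposited. Depth read from the steps of low values was 20.2 to 33.4 per sample, in units of 1000000 reads, so that 3 reads were worth 0.0899 to 0.148 CPM. Markers of the sort were high: the sum of Ptprc, Itgam, H2-Aa, H2-Ab1, H2-Eb1 and Adgre1 was 8055 to 10627 CPM in WT and 6748 to 10555 CPM in miR-21-/- samples. In limma 0 of these 6 genes passed the threshold. Adgre1 was still lower in miR-21-/- TAMs, at 433 ± 27.5 CPM against 564 ± 19.4 CPM in WT (SD, n = 4). Its limma adjusted p was 0.0014, and its log2 fold change of -0.38 was under the fold limit. Mir21a, the deleted gene, was listed at 0 in all 8 samples, so that its own row does not check the genotype, and its host gene Vmp1 rose in miR-21-/- TAMs (means 124 ± 9.08 and 397 ± 23.4 CPM; SD, n = 4).

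Both signalling chains of the receptor carry a tyrosine activation motif in their cytoplasmic tail, and the bases that encode it are shown because Cd79a and Cd79b, whose products work as a pair, had different values in these samples. The bases come from the GRCm38 genome with GENCODE M21 gene models, on chr7:24901287-24901478 (plus strand) for Cd79a and chr11:106311858-106312021 (minus strand) for Cd79b. Each of these stretches is spliced from 2 exons, and capitals mark the codons of the paired tyrosines and of the leucine or isoleucine that follows each.
Cd79a: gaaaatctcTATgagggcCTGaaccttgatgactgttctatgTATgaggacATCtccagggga
Cd79b: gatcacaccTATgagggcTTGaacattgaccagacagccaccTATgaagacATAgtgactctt

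Ighm makes the membrane form of the IgM heavy chain, which belongs to the receptor, and the secreted form, which is released as antibody, from 1303 shared coding bases and alternative ends. The ends are shown because the table holds 1 value for the gene and therefore does not tell them apart. They lie on the minus strand at chr12:113420870-113420937 for the secreted and chr12:113418829-113420937 for the membrane end, which is spliced. Capitals mark the 59 and 122 bases that the other form lacks.
Secreted end: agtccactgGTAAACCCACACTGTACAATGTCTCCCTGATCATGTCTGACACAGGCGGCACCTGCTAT
Membrane end: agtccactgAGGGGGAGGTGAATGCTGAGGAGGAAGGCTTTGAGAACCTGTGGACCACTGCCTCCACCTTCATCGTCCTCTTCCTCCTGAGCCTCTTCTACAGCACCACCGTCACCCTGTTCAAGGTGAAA

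The first comparison asked whether the B cell genes differed between WT and miR-21-/- TAMs. Of the 8 genes, 2 were lower in miR-21-/- TAMs, Ighm and Cd79b, and none was higher. Of these, 4 (Ighm, Cd79b, Igkc and Jchain) reached the filter of a mean of 1 per 1000000 of the column totals and entered the fit over 13850 genes. The other 4 (Cd79a, Ms4a1, Pax5 and Ebf1) lay below it and were compared one by one. The threshold was a Benjamini-Hochberg adjusted p of 0.005 or less and a fold change over 1.5 in limma. In that fit 7.12% of all genes tested passed in either direction and 4.23% passed as lower in miR-21-/- TAMs, and the median log2 fold change of all genes was -0.10. The split of calls was 400 higher and 586 lower, and it turned to 530 higher and 348 lower after rescaling by the median of ratios and 491 higher and 337 lower after quantile scaling. The share of all genes at an unadjusted p under 0.05 was not counted. Counts at that limit in the gene lists below are therefore not read as results about the lists.

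Ighm (chr12:113418558-113422730, minus strand) had the highest CPM of the 8 genes in every sample, although per kb of exon Igkc was above it in miR-21-/- replicates 1, 2 and 4. Its values were 46.2, 58.9, 42.4 and 81.1 CPM in WT replicates 1 to 4 and 13.4, 14.5, 10.5 and 11.0 CPM in miR-21-/- replicates 1 to 4. Every WT sample was above every miR-21-/- sample, and the lowest WT value was well clear of the highest miR-21-/- value. The means were 57.1 ± 17.5 CPM and 12.4 ± 1.94 CPM (SD, n = 4), a 4.62-fold difference. The log2 fold change was -2.09 (standard error 0.18, limma adjusted p = 5.02e-05), and 28 of the 13850 genes had a lower one. Between 273 and 2036 reads stood behind each value, and the call held in all 17 alternative limma fits, those without each sample included. The exact permutation test gave p = 0.0286, the smallest it allows.

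Cd79b (chr11:106311341-106314762, minus strand), the partner of Cd79a in the receptor, was the other gene that fell. It measured 8.89, 13.3, 13.1 and 15.6 CPM in WT and 5.67, 3.03, 3.57 and 3.84 CPM in miR-21-/- TAMs. Again the groups did not overlap, and miR-21-/- replicate 1 was the highest of its genotype. Means of 12.7 ± 2.80 and 4.03 ± 1.15 CPM (SD, n = 4) gave a log2 fold change of -1.45 (standard error 0.18, limma adjusted p = 0.000375). The difference was 3.16-fold, and 79 genes had a lower log2 fold change. Across all genes tested, groups failed to overlap for 35.1%, so that the separation of these 2 genes is shared by many others. In sorted bulk samples, fewer cells of a type and less RNA per cell cannot be told apart.

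Cd79a (chr7:24897381-24902197, plus strand) was far lower than Cd79b, and its difference between genotypes was not set against that of Cd79b in a test. Its values were 0.635, 0.519, 1.25 and 0.239 CPM in WT and 1.19, 0.180, 0.461 and 0.0832 CPM in miR-21-/- TAMs, the last of these under 3 reads. The groups overlapped, WT replicate 3 and miR-21-/- replicate 1 being high and WT replicate 4 and miR-21-/- replicates 2 and 4 low. The exact two-sided permutation test over 70 splits gave p = 0.457 for a log2 difference of -0.19, which was -0.033 without WT replicate 3 and -0.40 without miR-21-/- replicate 1. With values this low the pseudocount of 1 CPM holds the difference down, and with 0.1 CPM it was -0.62 (exact permutation p = 0.371). Per kb of exon, which allows levels of different genes to be compared, Cd79b stood 10.7 to 66.5 times above Cd79a in WT and 4.86 to 47.0 times above it in miR-21-/- samples. WT replicate 4, with the highest Ighm and the highest Cd79b, had the lowest Cd79a of its genotype.

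**Figure D1:**
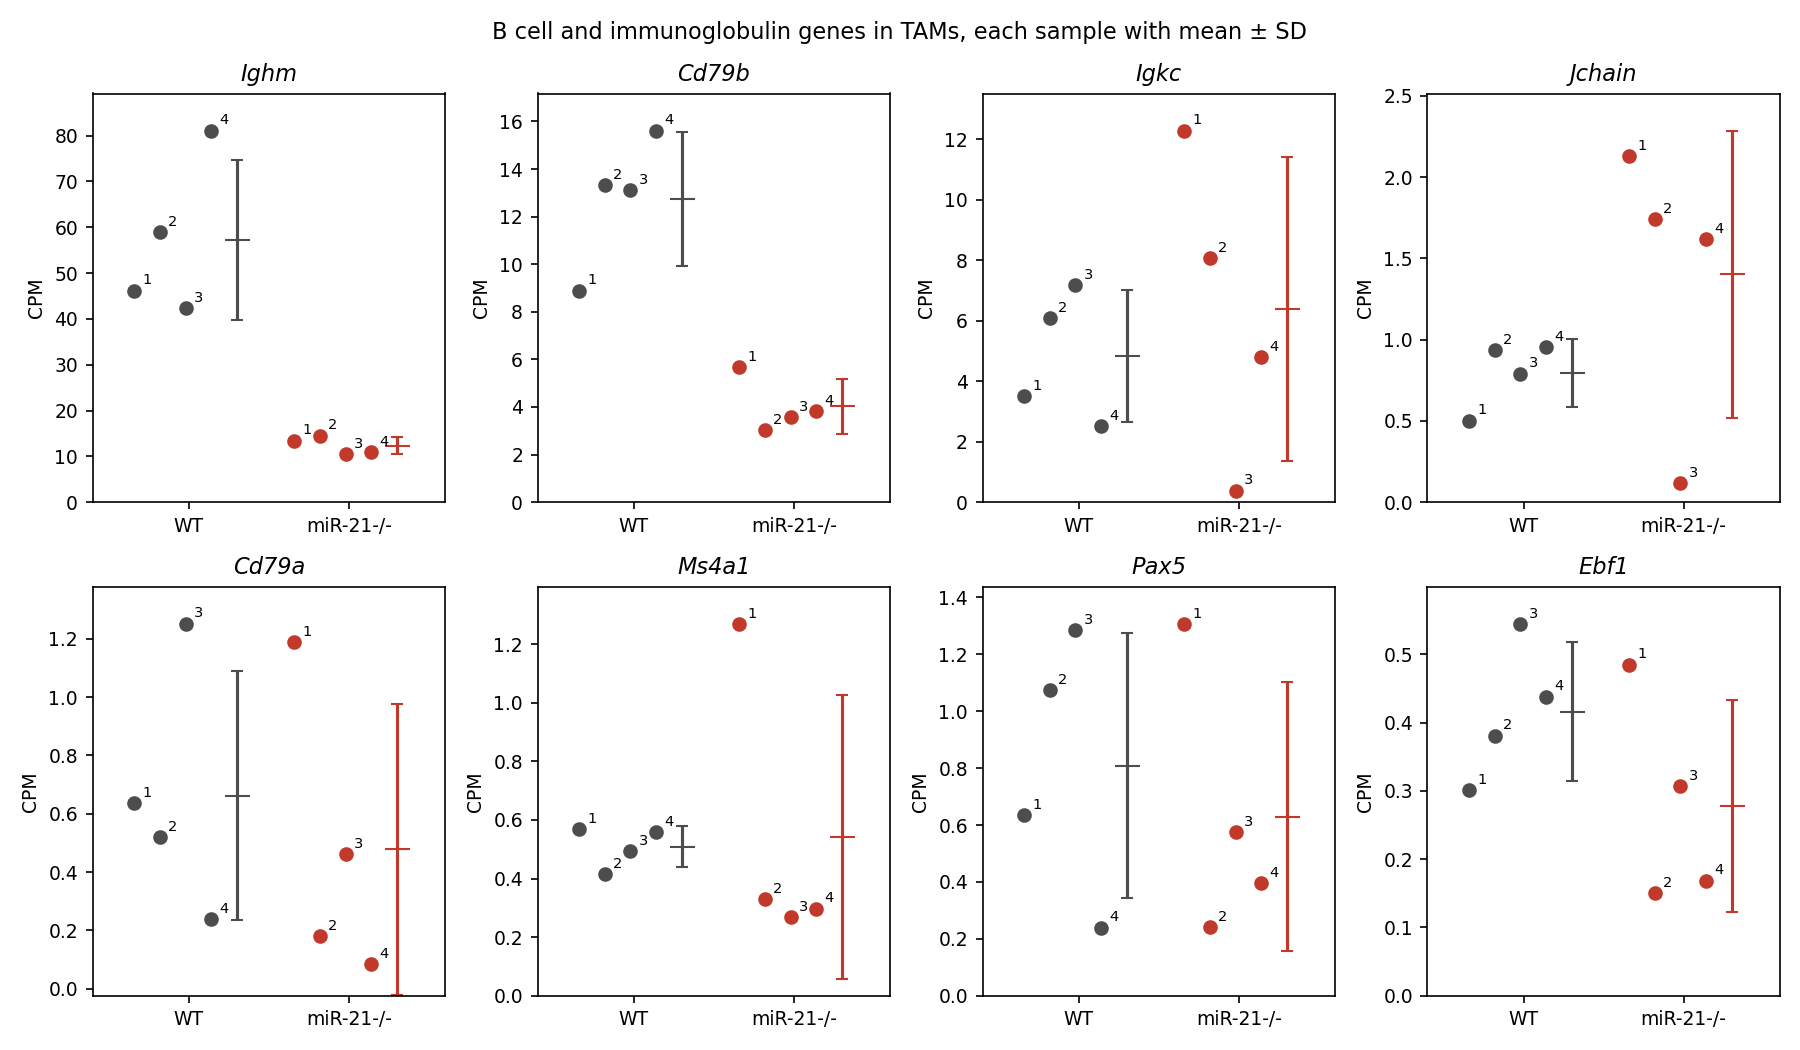
CPM of the 8 genes (vertical axes, linear, 1 panel per gene) in WT (grey) and miR-21-/- (red) TAMs. Points are samples labelled by replicate number and bars are means ± SD (n = 4). Ighm and Cd79b separate by genotype, while in the other genes the groups overlap and miR-21-/- replicate 1 is the highest of its genotype.

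Pax5 (chr4:44524757-44710487, minus strand), the factor that keeps B cells committed, ordered the samples much as Cd79a did. It was 0.635, 1.07, 1.29 and 0.239 CPM in WT and 1.31, 0.240, 0.576 and 0.397 CPM in miR-21-/- TAMs. The highest value of each genotype was again in WT replicate 3 and miR-21-/- replicate 1, and WT replicate 4 was the lowest of its genotype. No difference between genotypes was detected (log2 difference -0.15, exact permutation p = 0.629), and the difference was -0.027 without WT replicate 3 and -0.33 without miR-21-/- replicate 1. Ebf1 (chr11:44617317-45008091, plus strand), which acts before Pax5 in the lineage, had the lowest mean CPM of the 8 genes over all samples, though not the lowest value in every sample. Its values were 0.301, 0.381, 0.544 and 0.438 CPM in WT and 0.485, 0.150, 0.307 and 0.168 CPM in miR-21-/- TAMs, or 5 to 13 reads. In miR-21-/- TAMs replicates 2 and 4 were below every WT sample, replicate 3 was between the lowest WT values, and replicate 1 lay among the WT values, with a log2 difference of -0.15 and an exact permutation p = 0.20.

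Ms4a1 (chr19:11249675-11266241, minus strand) turned on 1 sample. It was even among WT samples, at 0.568, 0.416, 0.495 and 0.558 CPM, and 1.27, 0.330, 0.269 and 0.298 CPM in miR-21-/- samples. Replicate 1 of miR-21-/- was the highest of all 8 and the other 3 were below every WT sample. With all samples the log2 difference was -0.014 (exact permutation p = 1.0). Without miR-21-/- replicate 1 it was -0.22, with an exact p of 0.0286, the smallest that the splits of 4 against 3 samples allow. All values rested on 7 to 34 reads, and an antisense transcript that overlaps Ms4a1, 4930526L06Rik, reached 0.247 CPM.

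Igkc (chr6:70726435-70726966, plus strand), the constant region of the kappa chain, varied more between samples than between genotypes. Its values were 3.51, 6.09, 7.17 and 2.51 CPM in WT and 12.3, 8.06, 0.384 and 4.80 CPM in miR-21-/- TAMs. The miR-21-/- samples held both the highest value and the lowest, the latter resting on 10 reads in replicate 3. Means were 4.82 ± 2.18 and 6.38 ± 5.04 CPM (SD, n = 4), with a log2 fold change of 0.02 (standard error 0.60, limma adjusted p = 0.983). The sign of this change turned in 7 of 18 alternatives.

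Jchain (chr5:88519809-88527891, minus strand) showed the same sample far down. It was 0.502, 0.935, 0.792 and 0.956 CPM in WT and 2.13, 1.74, 0.115 and 1.62 CPM in miR-21-/- TAMs. Replicates 1, 2 and 4 of miR-21-/- were above every WT sample, and replicate 3, with 3 reads, was below every one. The log2 fold change was 0.33 (standard error 0.28, limma adjusted p = 0.401). Without this replicate the log2 fold change was 0.66 (limma adjusted p = 0.00815), which still missed the 0.005 limit, and without miR-21-/- replicate 1 it was 0.16 (limma adjusted p = 0.695). Ighm in miR-21-/- replicate 3, at 10.5 CPM, was the lowest of all samples but close to the 11.0 CPM of replicate 4. The plot of the 8 genes by sample shows this sample near 0 for Igkc and Jchain and among its group for Ighm and Cd79b.

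A rearranged immunoglobulin transcript carries a variable segment beside its constant region, so the variable segments were summed and set against the constant genes per kb of exon. Of 216 segments in the table, 95 had a read in some sample. Light chains were close to even: variable segments came to 68.9% to 103% of the light chain constant genes in WT and to 85.7%, 99.7% and 114% in miR-21-/- replicates 1, 2 and 4. In miR-21-/- replicate 3, with 8 reads over all heavy and light chain variable segments, the share was 30.5%. This share rested on 0.0768 CPM of light chain variable segments, below the 0.115 CPM that 3 reads were worth in that sample. The light chain genes therefore carried variable and constant sequence in like amounts in 7 of 8 samples.

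Heavy chains did not show this evenness in WT TAMs. In WT replicates 1 to 4, heavy chain variable segments were 15.3%, 26.7%, 50.9% and 6.52% of Ighm per kb. WT replicate 4, with the highest Ighm at 43.0 CPM per kb, had 2.81 CPM per kb of heavy chain variable segments. In miR-21-/- replicates 1 to 4 the same share was 222%, 140%, 10.8% and 97.9%. The share was above every WT value in replicates 1, 2 and 4 and within the WT range in replicate 3. Its denominator, Ighm, was itself lower in miR-21-/- TAMs. The heavy chain variable segments alone overlapped between genotypes. They summed to 3.74, 8.34, 11.4 and 2.81 CPM per kb in WT and 15.8, 10.8, 0.598 and 5.70 CPM per kb in miR-21-/- samples. Against all heavy chain constant genes, including those of the switched classes, the variable segments were 6.10% to 35.0% in WT and 80.8%, 77.3%, 10.1% and 56.2% in miR-21-/- samples. These ratios were computed after the values were seen and were not tested. Whether reads that span a joined variable segment were aligned was not tested either.

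**Figure D2:**
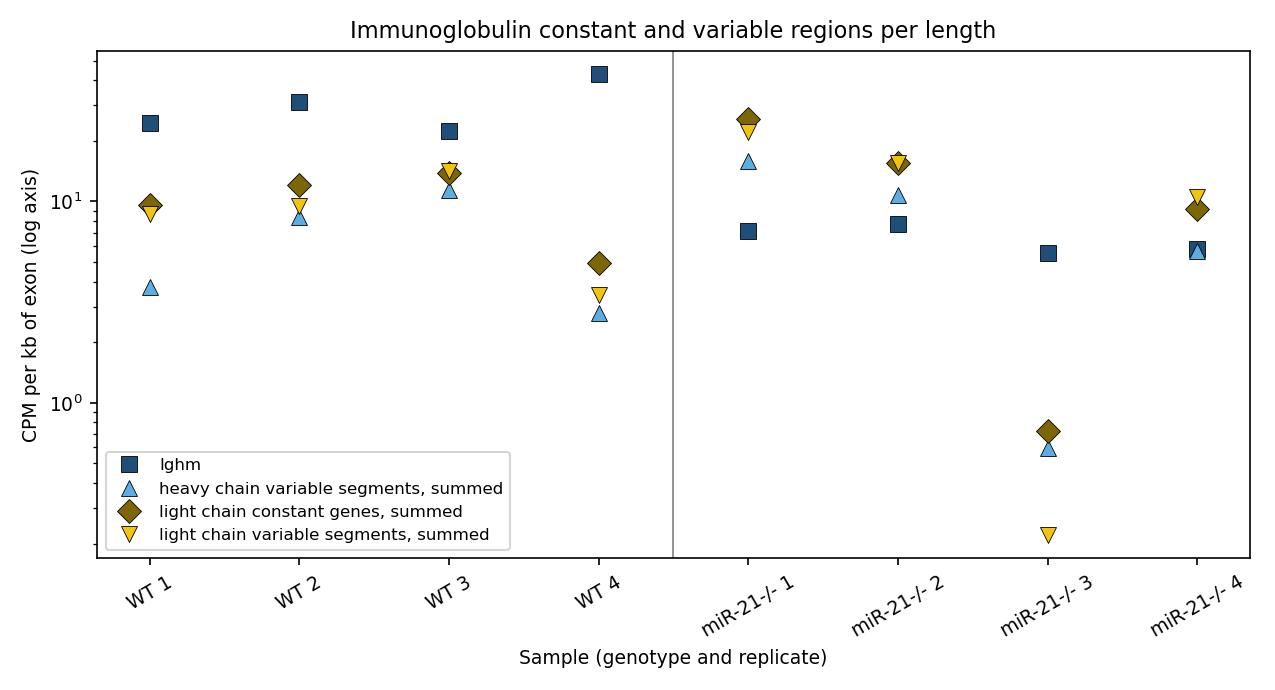
CPM per kb of exon (vertical axis, log scale) of Ighm, of the summed heavy chain variable segments and of the summed light chain constant and variable genes in each of the 8 TAM samples (horizontal axis). Light chain constant and variable sums lie close together except in miR-21-/- replicate 3, and Ighm lies well above the heavy chain variable segments in all 4 WT samples and in miR-21-/- replicate 3, close to them in replicate 4 and below them in replicates 1 and 2.

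Switched heavy chain classes were high and low in the same samples as Igkc in the miR-21-/- group, and highest in WT replicate 3 among WT samples, as Igkc was. The sum of the 6 switched constant genes, which B cells use after class switching, was 3.61, 5.26, 15.3 and 3.86 CPM in WT and 17.5, 10.9, 0.538 and 8.76 CPM in miR-21-/- samples. Replicate 1 of miR-21-/- was the highest of all samples and replicate 3 the lowest. Ighg2c, an IgG heavy chain, ranged from 0 to 9.55 CPM in WT and from 0.269 to 11.9 CPM in miR-21-/- samples. Ighd, which naive B cells make with Ighm, was 1.06 ± 0.505 CPM (SD, n = 4) in WT and 2.50, 0.0600, 0.115 and 0.165 CPM in miR-21-/- samples. Of the 8 heavy chain constant genes, 5 were tested and Ighm alone passed the threshold, and of the 5 light chain constant genes Igkc alone was tested. Ighm made up 68.7% to 93.5% of heavy chain constant sequence per kb in WT, and 36.5%, 55.2%, 93.8% and 57.4% in miR-21-/- samples.

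Variable segments differed from sample to sample. The number with a read was 16 to 33 in WT and 59, 26, 4 and 12 in miR-21-/- replicates 1 to 4. The highest segment was Igkv4-72 in WT replicate 1 and Igkv9-124 in WT replicate 2. It was Ighv1-82 in WT replicate 3 and in miR-21-/- replicate 2, and a different segment in each of the other 4 samples. Ighv1-82, the highest on average, was 0, 0.277, 3.36 and 0 CPM in WT and 0.336, 2.61, 0 and 0.926 CPM in miR-21-/- samples, so that a few samples held most of its reads. The other segments among the 5 highest were Igkv6-25, Igkv6-23, Igkv10-96 and Iglv1.

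The close relatives Igkv6-25 and Igkv6-23 show how far such segments can be told apart. Igkv6-25 reached 2.00 CPM in WT replicate 3 and 2.02 CPM in miR-21-/- replicate 4, and Igkv6-23 reached 1.66 CPM in WT replicate 3 and 1.80 CPM in miR-21-/- replicate 2. The last 90 coding bases, at chr6:70215868-70215957 (plus strand) and chr6:70260409-70260498 (minus strand), were 82.2% identical, and capitals mark the 16 bases that differ. Reads from the shared stretches may have been split between them, so the value of each alone is uncertain while their sum is less so.
Igkv6-25: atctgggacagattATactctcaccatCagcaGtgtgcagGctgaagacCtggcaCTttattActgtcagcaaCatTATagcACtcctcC
Igkv6-23: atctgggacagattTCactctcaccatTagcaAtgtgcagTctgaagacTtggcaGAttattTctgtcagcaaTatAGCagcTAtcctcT

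The second comparison asked whether the 8 genes varied together across the 8 samples, on log2(CPM + 1). Among 28 pairs, 24 had a positive Pearson r, and 5 of them had an unadjusted exact p under 0.05. No pair passed after adjustment over the 28, the smallest adjusted exact p being 0.0587, and with Spearman's rho 3 pairs had an unadjusted exact p under 0.05. All genes of a sample share its library and depth. For Ighm and Cd79b the genotypes form separate clusters, so their pooled r of 0.94 is not read here, and after the mean of each genotype was subtracted it was 0.45.

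Cd79a and Pax5, the B cell receptor chain and the B cell identity factor, were the closest pair that did not separate by genotype. Pearson's r was 0.90 (exact permutation p = 0.00387, adjusted over 28 pairs 0.0587) and rho was 0.86 (exact p = 0.0107, adjusted 0.215). Without miR-21-/- replicate 1 and WT replicate 3, the samples farthest from the median of Cd79a, r was 0.73. Cd79a and Ebf1 gave an r of 0.80 (exact p = 0.0188, adjusted 0.132; rho 0.76, exact p = 0.0368, adjusted 0.343), which was 0.54 without the same samples.

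Igkc and Jchain formed the other close pair. Pearson's r was 0.84 (exact p = 0.00945, adjusted 0.0882) and rho was 0.71 (exact p = 0.0576, adjusted 0.403). Without miR-21-/- replicates 1 and 3, the highest and lowest samples of Igkc, r was 0.42, so the relation rests largely on those samples. With Cd79a the same genes had r of 0.35 for Igkc (exact p = 0.400, adjusted 0.700; rho 0.31, exact p = 0.462, adjusted 0.834) and -0.07 for Jchain (exact p = 0.864, adjusted 0.967; rho -0.26, exact p = 0.536, adjusted 0.834). The plasma cell and antibody genes and the Cd79a, Pax5 and Ebf1 genes were thus high in different samples within the miR-21-/- group, apart from replicate 1, which was high in all.

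Ighm had its own pattern. With genotype means subtracted, given as a description over 8 samples, Ighm had r of -0.42 with Cd79a, -0.46 with Pax5, 0.12 with Igkc, 0.46 with Jchain and 0.45 with Cd79b. Cd79b in turn had r of 0.77 with Ebf1, 0.39 with Pax5 and 0.33 with Cd79a. Across the 28 pairs 25 were positive on this scale and 10 were above 0.5.

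**Figure D3:**
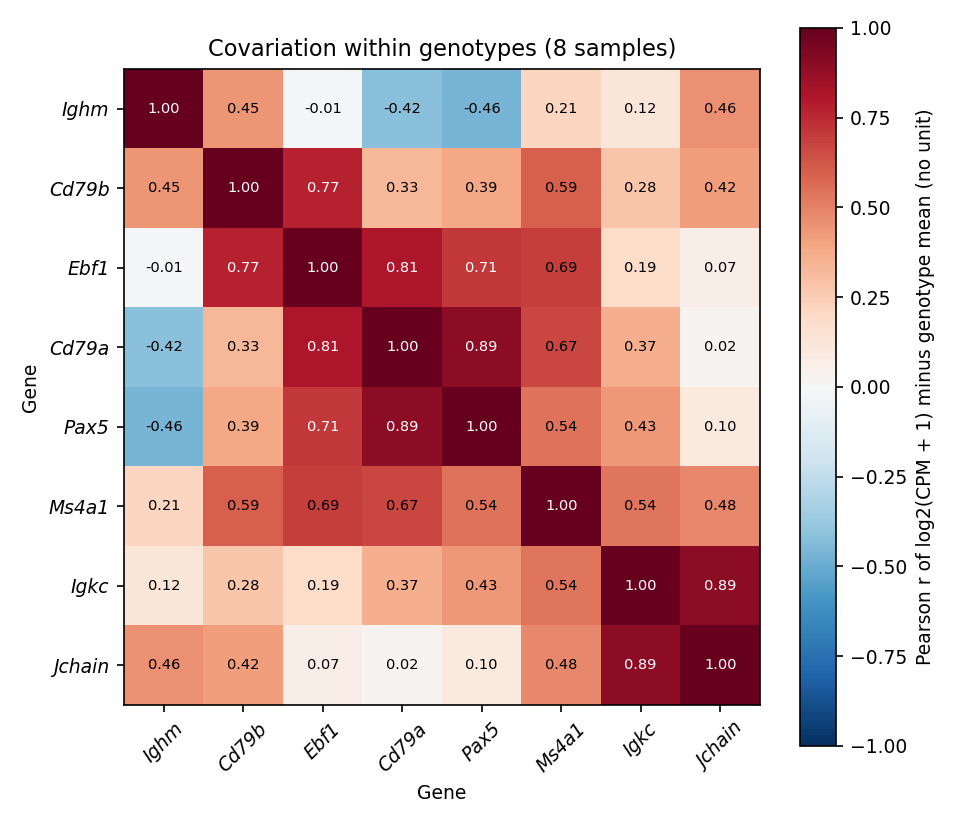
Pearson r, after the mean of each genotype was subtracted, for each pair of the 8 genes over 8 samples (both axes list the genes, color gives r without a unit). Values are high among Cd79a, Pax5 and Ebf1 (0.71 to 0.89) and for Igkc with Jchain (0.89), Ms4a1 has 0.48 to 0.69 with all 5 of these, Cd79b has 0.77 with Ebf1, and Ighm has r of -0.42 with Cd79a and -0.46 with Pax5.

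Genes of any function whose pattern was most like that of Cd79a were ranked among 13355 genes by r with genotype means subtracted, over the 8 samples. The 10 closest were Plekho1 (0.97), Zfp335 (0.97), Gpt (0.97), Stat6 (0.96), Zbtb24 (0.96), Mtif3 (0.96), Suds3 (0.95), Ptar1 (0.95), Parg (0.95) and A730011C13Rik (0.95). None of these is a B cell marker of the list used here, none passed the threshold between genotypes, and 44 genes had r above 0.9. Genes outside that marker list thus reached an r of this size to Cd79a. The ranking took the highest r of 13355 genes over 8 samples, and the number above 0.9 by chance was not tested.

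Other B cell markers fell into those at a trace and those at a clear level. Of 16 markers, 6 were tested, and Cd79b and Bank1 passed as lower and Ralgps2 as higher. Of the 10 markers below the filter, 6 were highest in miR-21-/- replicate 1 and 4 in WT replicate 3. Fcer2a and Cr2, receptors of mature B cells that were named after their values were seen, were 1.27 and 1.04 CPM in miR-21-/- replicate 1 and at most 0.0768 CPM in the other miR-21-/- samples. Blk, a kinase of B cells, was instead highest in WT replicate 3, at 0.544 CPM against 0.448 CPM in miR-21-/- replicate 1. The marker sum was 123 to 161 CPM in WT and 77.6 to 93.5 CPM in miR-21-/- samples, most of it from Bank1, Cd22, Ralgps2 and Cd79b.

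Bank1, a scaffold protein of B cell receptor signalling, was 78.9, 84.5, 58.8 and 70.7 CPM in WT and 25.2, 23.1, 39.9 and 39.5 CPM in miR-21-/- TAMs. Its groups did not overlap, and its log2 fold change of -1.20 (limma adjusted p = 0.00101) lost the call with no filter on low genes (adjusted p = 0.00822). Ralgps2 rose from 12.6 ± 2.53 to 20.7 ± 0.712 CPM (SD, n = 4; log2 fold change 0.70, limma adjusted p = 0.0026), and its call was lost in 8 of 17 alternatives, including those without each miR-21-/- replicate and without WT replicates 2 and 4 (by its p, up to 0.0134, or by its fold).

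Most signalling genes of the receptor did not pass the threshold. Of 22 genes of B cell receptor signalling, 18 were tested, 3 were lower and none was higher in limma. An unadjusted p under 0.05 was found for 6, of which 5 were lower and 1, Cd72, was higher. The median log2 fold change was -0.10, equal to that of all genes. Blnk, the adaptor that links the receptor to its kinases, fell most, from 18.0, 18.2, 18.8 and 12.5 CPM in WT to 3.28, 5.22, 3.03 and 2.68 CPM in miR-21-/- TAMs. All WT samples were above all miR-21-/- samples (log2 fold change -1.98, standard error 0.18, limma adjusted p = 5.02e-05). Prkcb, a protein kinase C downstream of the receptor, fell from 122 ± 10.0 to 78.4 ± 9.55 CPM (SD, n = 4; log2 fold change -0.64, limma adjusted p = 0.000666), a fold that missed the limit after rescaling by the median of ratios. Cd79b was the other gene that fell.

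The receptor-near tyrosine kinases tested, Syk, Btk and Lyn, did not pass. Syk was 423 ± 42.1 CPM for WT and 401 ± 44.5 CPM for miR-21-/- TAMs, Btk 73.8 ± 2.09 and 72.1 ± 3.23 CPM, and Lyn 787 ± 77.4 and 717 ± 59.2 CPM (SD, n = 4). These kinases also act in macrophages, and their log2 fold changes were -0.08, -0.03 and -0.13.

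**Figure D4:**
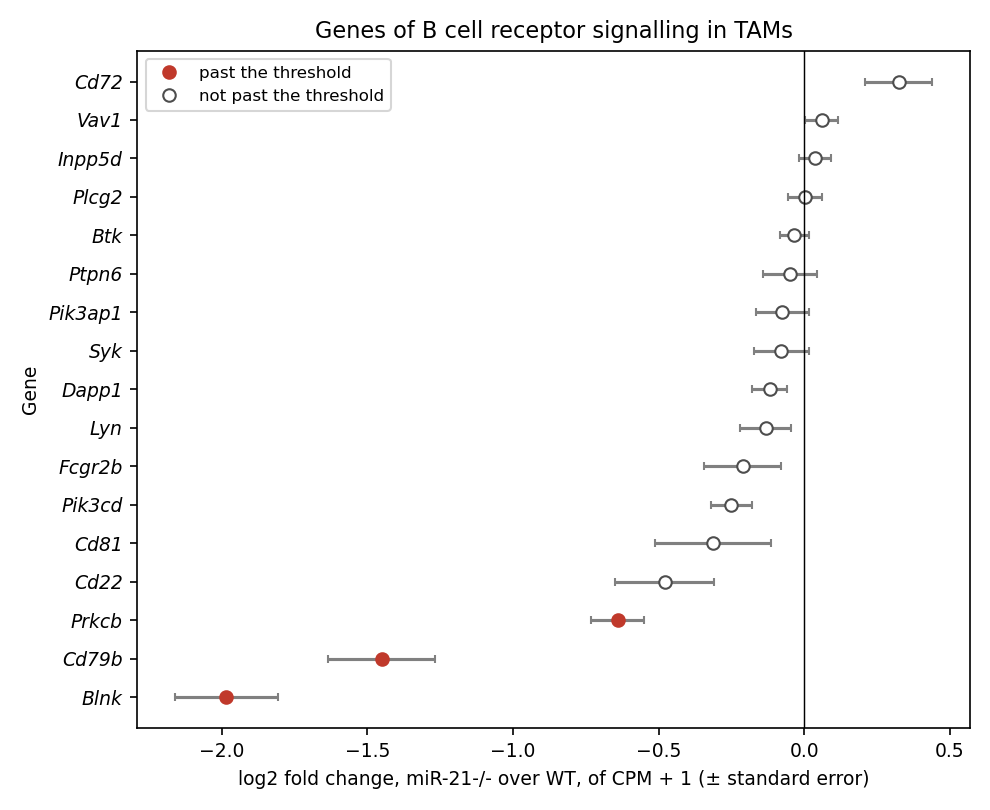
Log2 fold change of CPM + 1, miR-21-/- over WT, with its standard error (horizontal axis, limma, 4 samples per genotype) for tested genes of B cell receptor signalling (vertical axis). Filled points passed the threshold: Blnk, Cd79b and Prkcb lie below 0, and the open points did not pass.

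Transcription factors of the B lineage gave no call in limma. An unadjusted p under 0.05 was found for 7, 6 of them lower, but the share of all genes at that limit was not counted. Of 14, 10 were tested and their median log2 fold change was -0.26, below the -0.10 of all genes. The lowest was Irf4, which drives plasma cell formation, whose mean was 3.91 ± 1.33 CPM for WT against 2.00 ± 0.574 CPM for miR-21-/- TAMs (SD, n = 4; log2 fold change -0.69, limma adjusted p = 0.0286). It passed without WT replicate 4 (-0.88, adjusted p = 0.00317). The highest was Irf8, a factor of B cells and macrophages, with 178 ± 12.4 and 259 ± 6.72 CPM (SD, n = 4; limma adjusted p = 0.000178), whose log2 fold change of 0.54 was under the fold limit and went past it after rescaling by the median of ratios (0.66).

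Plasma cell and precursor markers were also examined, since antibody genes were present. Of 10 plasma cell markers, 5 were tested and none passed in limma, with 2 at an unadjusted p under 0.05. Prdm1, also made by macrophages, had the highest log2 fold change at 0.34 (limma adjusted p = 0.00541) and Irf4 the lowest. Mzb1 and Tnfrsf17, which plasma cells make in quantity, were at most 0.224 and 0.148 CPM in any sample. Among 6 markers of B cell precursors none reached the filter, and Rag1, Rag2 and Dntt were listed at 0 in all samples.

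Markers of other cells were read beside these values. Plasmacytoid dendritic cells also express B lineage genes. Of their 8 markers 1 was tested, Tcf4, which was lower in miR-21-/- TAMs (log2 fold change -0.60, limma adjusted p = 0.000192), and their defining marker Siglech was at most 0.239 CPM. Below the filter, Klk1 (0.198 to 0.515 CPM in WT and 0 to 0.0768 CPM in miR-21-/- samples) and Cox6a2 (0.368 to 0.796 and 0.115 to 0.298 CPM) did not overlap and were lower, while Pacsin1 (0.139 to 0.346 and 0.634 to 1.19 CPM) did not overlap and was higher. Siglech, Ccr9, Ly6d and Spib overlapped. Klk1 was under 3 reads in every miR-21-/- sample. Groups did not overlap for 35.1% of all genes tested, and this share was not counted below the filter. The summed T cell markers, 0 of 12 called in limma and 4 at an unadjusted p under 0.05, were 22.8 to 28.2 CPM in WT, 56.2 CPM in miR-21-/- replicate 1 and 15.2 to 30.7 CPM in the other miR-21-/- samples, so that replicate 1 was high and replicate 3 low as for Igkc. Cd8a of that list was 1.32 to 2.19 CPM in WT and 2.80 to 11.6 CPM in miR-21-/- samples, without overlap, and missed the limit (log2 fold change 1.28, limma adjusted p = 0.00804). Of the fibroblast markers 4 of 7 tested were lower (Col3a1, Col1a1, Pdgfra and Pdgfrb), and the summed level of the list was 70.5 to 148 CPM in WT and 18.8 to 51.0 CPM in miR-21-/- samples. The other 3 did not pass, with log2 fold changes of -2.25 for Col1a2 (limma adjusted p = 0.00503), -0.85 for Dcn (0.124) and 0.38 for Thy1 (0.274), and Col1a1 overlapped between groups (10.1 CPM in WT replicate 2 and 11.0 CPM in miR-21-/- replicate 2). Of conventional dendritic cell markers 1 of 8 (Dpp4) and of neutrophil markers 1 of 8 tested (Mmp8) were lower, with 6 and 5 at an unadjusted p under 0.05. The dendritic cell marker Clec9a, with 2.54 ± 0.195 CPM for WT and 8.18 ± 4.29 CPM for miR-21-/- TAMs (SD, n = 4), did not overlap either and missed the limit (log2 fold change 1.26, limma adjusted p = 0.00532). Of 10 macrophage markers 1 (Fcgr1) was higher and none was lower in limma, with 3 at an unadjusted p under 0.05, among them Adgre1 (log2 fold change -0.38, limma adjusted p = 0.0014, under the fold limit) and Csf1r (-0.48, limma adjusted p = 0.00538). None of the natural killer, endothelial or epithelial markers tested (2, 3 and 3) passed in limma, with 1, 0 and 1 at an unadjusted p under 0.05. The part of these cells in the levels of Ighm, Cd79b, Igkc or the other B cell genes was not tested. Counts at an unadjusted p under 0.05 were not set against the share of all genes at that limit.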

How the data were processed

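RNA-Seq of sorted TAMs from LLC tumors (4 WT, 4 miR-21-/- samples; mRNA libraries) was read from 1 table of CPM values that the authors deposited, each raised by 0.0001, which was subtracted. The submitters' processing notes name STAR, Partek 7.0 and mm10. The counting rule and strand are not given in the sources used here, so antisense overlaps cannot be told apart. Up to 20 reads, 69.9% to 71.6% of values were whole reads (tolerance 0.02), so no count test was run. Depth was 20.2 to 33.4 in units of 1000000 reads, and columns total 788099 to 807758 CPM. Coordinates come from GENCODE M21 (GRCm38), where 93.2% of symbols matched and 97.1% of those had the same start.

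Log2(CPM + 1) was fitted with limma 3.58.1 in R 4.3.3 (eBayes with trend) over 13850 of 30634 detected genes. The limits were 0.005 for the Benjamini-Hochberg adjusted p and 1.5 for the fold change. Genes below the filter and pairs of genes were tested by exact two-sided permutation (70 splits, smallest p 0.0286; 40320 pairings). Scripts were tested on simulated data. CPM per kb was divided by annotated exon length. Named genes are the 8 genes, the called, highest and lowest members of each list, the 10 genes most like Cd79a and the 5 highest variable segments, while other genes named were chosen after their values were seen. A few genes picked by the rule are left out of the text. The genes and lists were chosen with earlier results of these data known. Other settings tried were pseudocounts of 0.1 and 10, a filter of 5 or none, quantile and median-of-ratios scaling, arrayWeights, eBayes without trend, a replicate block, Spearman's rho and omission of each sample. Python 3.11.15, scipy 1.17.1 and matplotlib 3.10.9 were used.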

Additional observations from a re-analysis of the deposited data

Results flagged for a closer look

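Samples far from the rest of their genotype were looked for in 30 groups of 4 samples by Dixon's criterion, which chance meets in about 1 of 20 groups, and 2 groups met it. Ms4a1 in miR-21-/- replicate 1 was 1.27 CPM, against 0.269 to 0.330 CPM in the other miR-21-/- samples. The summed fibroblast markers in miR-21-/- replicate 2 were 51.0 CPM, against 18.8 to 22.7 CPM in the other miR-21-/- samples. The sample with high fibroblast markers had the highest Ighm (14.5 CPM) and the lowest Cd79b (3.03 CPM) of the miR-21-/- samples.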

How the results depend on the processing

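The 2 calls among the 8 genes, Ighm and Cd79b, were made in all 17 alternative limma fits, with log2 fold changes of -2.21 to -1.91 and -1.60 to -1.35 when 1 sample was left out. With a pseudocount of 10 the log2 fold change was smaller, -1.56 for Ighm and -0.69 for Cd79b. Of all genes tested, 986 passed, against 452 with a pseudocount of 10 and 515 with no filter, and 684 to 1002 when 1 sample was left out. The count of pairs that passed after adjustment was 0, against 2 with a pseudocount of 10 and 0 to 1 with 1 sample left out (1 without WT replicate 4 or miR-21-/- replicate 2). Igkc turned to -0.21 with a pseudocount of 0.1 and to -0.30 with arrayWeights, and ranged from -0.40 to 0.69 when 1 sample was left out. It was lower without WT replicate 1 (-0.08) or 4 (-0.20) and without miR-21-/- replicate 1 (-0.40), 2 (-0.22) or 4 (-0.00057). Ms4a1 turned to 0.0033 with a pseudocount of 10, to 0.025 with the median of ratios and to 0.052 with quantile scaling, and ranged from -0.22 to 0.064 with 1 sample left out (0.0046 without WT replicate 1, 0.0013 without WT replicate 4, and 0.041, 0.064 and 0.053 without miR-21-/- replicates 2, 3 and 4). With 1 sample left out, the log2 change ranged from 0.16 to 0.66 for Jchain, -0.40 to -0.033 for Cd79a, -0.33 to -0.027 for Pax5 and -0.23 to -0.11 for Ebf1. With a pseudocount of 0.1, Cd79a, Pax5, Ebf1 and Ms4a1 were -0.62, -0.33, -0.52 and -0.16 (exact permutation p = 0.371, 0.629, 0.20 and 0.80). The cause was not tested. The B cell transcription factor count went from 0 to 1 with the median of ratios and without WT replicate 4.

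Replicate numbers are those of the labels' biological replicate field, which the titles of the miR-21-/- samples do not follow. Same-numbered samples did not deviate together (r of 0.08, -0.11, -0.14 and 0.22). With the replicate number as a block, 922 genes passed and the same 2 of the 8 were called, Ighm with an adjusted p of 0.000216 and Cd79b with 0.00216, both from limma.

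Limits are the 4 samples per genotype and the few reads of Cd79a, Ms4a1, Pax5, Ebf1 and Jchain, where 3 reads are 0.0899 to 0.148 CPM. Rescaling by the median of ratios moved the median log2 fold change of all genes from -0.10 to 0.0018.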
